A study of Arabidopsis thaliana with 8 samples.

Results

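Class III peroxidases were followed across 4 genotypes of Arabidopsis thaliana seedlings. The family was given as a list of 59 loci, and a locus entered when the array annotation assigned a probe set to it alone. This held for 47 loci, each with 1 probe set, of 13333 genes named alone in the whole table. Another 5 loci (AT2G18140, AT2G18150, AT3G17070, AT4G37520 and AT4G37530) appeared only in probe sets shared with other genes. The last 7 (AT1G05240, AT1G05250, AT3G32980, AT5G06720, AT5G22410, AT5G42180 and AT5G67400) were named by no probe set and were not analysed here.

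RNA of 7-day-old untreated seedlings was hybridised to 8 single-colour Affymetrix arrays, 2 for each genotype. The first genotype was gibberellin-deficient, carried a leaky allele according to its label, and had a Ler background. The next was de-etiolated and had a Col background, and the wild types Wassilewskija and Ler-0 completed the set. The labels name neither mutated gene. No Col wild type was analysed here, so the de-etiolated mutation and the Col background cannot be told apart. In RNA of whole-seedling samples, fewer cells of a type and less RNA per cell cannot be told apart either. Whether the probes match the sequences of the different backgrounds equally well was not tested.

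Class III peroxidases are secreted haem enzymes of plants that use hydrogen peroxide to oxidise phenolic compounds in the cell wall. They join lignin precursors and cross-link wall proteins and phenolics, which stiffens the wall, and they can also release reactive oxygen species that loosen it. Many members of this large family are expressed in roots. Gibberellin is a hormone that promotes elongation growth.

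The values were the authors' MAS5 signal intensities, with a trimmed mean of 100.01 in each array. They were analysed as log2(signal + 2.96), a scale that understates the change of dim genes, and every change below is a difference on it. The dimmest 40% of probe sets by mean over all arrays were left out, and 13648 were tested with limma. A gene was called when its two-sided p, adjusted over all 13648 by the Benjamini-Hochberg method, was below 0.05. Of the 47 peroxidases, 33 were tested and 14 were too dim. AT1G68850, at a mean log2 value of 5.03, lay just inside the filter, and PRX25 (AT2G41480), at 4.68, just outside it. The cut was 4.76. Among the called falls below, the de-etiolated means of AT2G35380 (4.21) and AT1G68850 (4.30) were under it. So was the gibberellin-deficient mean of AT5G58390 (4.72). These genes passed the filter only through their other groups.

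Signals correlated at 0.965 to 0.971 within genotypes and 0.934 to 0.963 between them. A 25S rRNA control probe set gave 69.7 and 39.6 for gibberellin-deficient seedlings and 108 and 62.4 for de-etiolated ones, against 32.0 and 22.2 for Wassilewskija and 30.3 and 26.0 for Ler-0. The 3′ signal of an older actin control was 3.84 and 4.93 times its 5′ signal for gibberellin-deficient seedlings and 2.35 and 2.32 times for de-etiolated ones, against 2.26 and 1.90 times for Wassilewskija and 5.22 and 4.77 times for Ler-0. The rRNA control was thus higher in both mutants, and the actin ratio was lower in de-etiolated and Wassilewskija seedlings than in the lines of Ler background. A newer actin control showed no such split, with ratios of 1.16 to 1.5 over the 8 arrays. The part of these controls in the results below was not tested.

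More peroxidases rose than fell in the gibberellin-deficient mutant relative to Ler-0. Of the 33 tested, 14 changed, against 10.7% of all tested probe sets. Among these 12 rose (36.4%), against 4.55%, and 2 fell, against 6.18%. The median change was 0.35 over the peroxidases and 0.0086 over all probe sets, with 25 positive and 8 negative. The changes of the called genes ran from -1.45 to 1.53, and 6 of the 14 were at least 2-fold. The share at least 2-fold among all called probe sets was not counted. The count of rises rests on few arrays. It was 5 without Ler-0 replicate 1 (1.68% of all probe sets), 7 without Ler-0 replicate 2 (2.67%), 5 without mutant replicate 1 (1.13%) and 4 without mutant replicate 2 (1.35%).

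**Figure D1:**
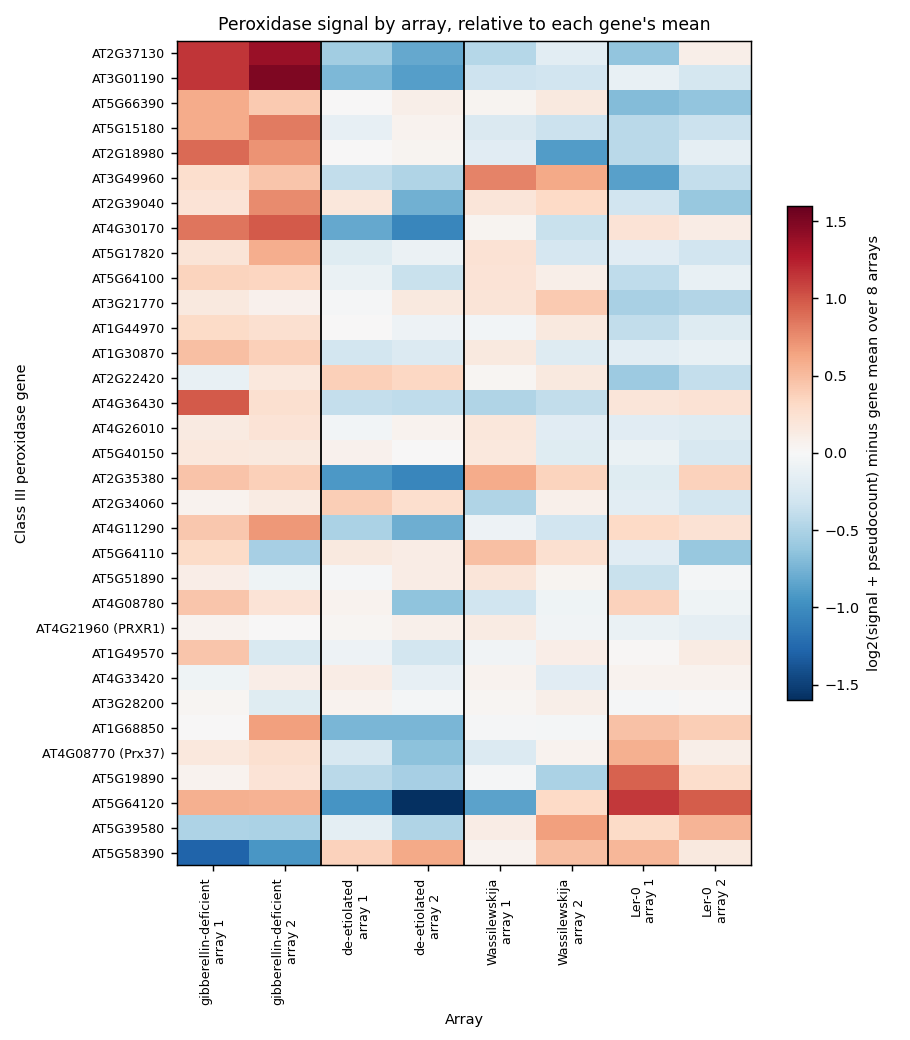
Signal of the 33 tested peroxidases in the 8 arrays, as log2(signal + 2.96) minus the mean of each gene over all arrays. Rows are ordered by the change between the gibberellin-deficient mutant and Ler-0, so AT2G37130 (change 1.53) and AT5G58390 (change -1.45) lie at opposite ends.

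AT2G37130 had the largest rise. Its signal was 824 and 978 in the gibberellin-deficient mutant, against 240.2 and 399.9 in Ler-0. Both mutant arrays lay above all other arrays, which included de-etiolated seedlings at 254 and 210.4 and Wassilewskija at 270.5 and 332. The change was 1.53 ± 0.21 (SE, n = 2 arrays a group; limma adjusted p = 0.00132).

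AT3G01190 changed almost as much, by 1.52 ± 0.18 (limma adjusted p = 5.67e-04). It had 166 and 214 in the gibberellin-deficient mutant, against 67.9 and 60.2 in Ler-0. The de-etiolated mutant had 44.0 and 38.9 and Wassilewskija 58.2 and 59.4, so both gibberellin-deficient arrays again stood above all 6 others.

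PRX72 (AT5G66390) is a peroxidase known to take part in lignin formation. It had 158 and 139.7 in the gibberellin-deficient mutant, against 62.5 and 65.9 in Ler-0, a change of 1.17 ± 0.16 (limma adjusted p = 0.00105). The de-etiolated mutant had 104 and 109.9 and Wassilewskija 107 and 116. Ler-0 was thus the low group, and the 4 de-etiolated and Wassilewskija arrays lay between it and the gibberellin-deficient mutant.

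AT5G15180 had 63.9 and 75.5 in the gibberellin-deficient mutant, against 29.7 and 31.9 in Ler-0, while de-etiolated seedlings had 37.3 and 43.1 and Wassilewskija 34.8 and 31.8. Its change was 1.1 ± 0.21 (limma adjusted p = 0.00654). The call was lost without Ler-0 replicate 1 (adjusted p = 0.0514) or mutant replicate 2 (0.0652). AT2G18980 had 305 and 269 in the gibberellin-deficient mutant, against 119.7 and 146 in Ler-0, while de-etiolated seedlings had 162 and 167 and Wassilewskija 142 and 85.5. Its change was 1.1 ± 0.21 (limma adjusted p = 0.00742), lost without Ler-0 replicate 1 (0.0647) or mutant replicate 1 (0.0766). In both genes the mutant arrays were above all others.

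The other 7 rises were smaller, between 0.58 and 0.98. AT3G49960 rose by 0.98 ± 0.17 (limma adjusted p = 0.0046), which was lost without mutant replicate 2 (0.0521). AT4G30170 rose by 0.75 ± 0.15 (0.0104), lost without Ler-0 replicate 2 or either mutant array (0.0569 to 0.0896). AT5G17820 rose by 0.64, AT3G21770 by 0.61 and AT1G30870 by 0.58, and these 3 calls were lost without any 1 of the 4 mutant and Ler-0 arrays (limma adjusted p = 0.0589 to 0.258). AT5G64100 rose by 0.61 and lost its call without Ler-0 replicate 1 or either mutant array (0.0909 to 0.130). AT1G44970 rose by 0.58 and lost its call without any 1 array of the mutant, Wassilewskija or Ler-0 (0.0536 to 0.229). Without the mean-variance trend in the fit, AT1G30870, AT1G44970, AT5G17820 and AT5G64100 did not pass (0.0521 to 0.0939), and without the filter AT1G44970 and AT5G17820 did not (0.0661 and 0.0819). With only the compared groups in the fit, AT1G44970 did not pass (0.0513).

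The 2 falls were AT5G58390 and AT5G39580. AT5G58390 had 20.4 and 26.9 in the gibberellin-deficient mutant, against 79.1 and 60.5 in Ler-0, while de-etiolated seedlings had 70.7 and 83.3 and Wassilewskija 56.2 and 76.5. Both mutant arrays lay below every other array, and the change was -1.45 ± 0.23 (limma adjusted p = 0.0025). The mutant mean was under the filter cut, so the gene was tested only because its other groups were higher. AT5G39580 had 36.3 and 36.1 in the gibberellin-deficient mutant, against 65.8 and 78.2 in Ler-0, a change of -0.93 ± 0.23 (limma adjusted p = 0.0217). That call was lost without any 1 of the 4 mutant and Ler-0 arrays (0.0665 to 0.124), and also without the filter (0.0536). The mutant arrays did not overlap with Ler-0 in either gene.

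The calls for AT2G37130, AT3G01190, PRX72 and AT5G58390 remained when any 1 of the 8 arrays was left out. With Wassilewskija in place of Ler-0 as the control, a comparison added after the data were seen, 8 peroxidases were higher in the gibberellin-deficient mutant, against 9.0% of all probe sets, and 2 lower, against 8.99%. Both comparisons share the 2 mutant arrays. AT3G01190 (1.64), AT2G37130 (1.57), AT2G18980 (1.35), AT4G30170 (1.08), AT5G15180 (1.0) and AT1G30870 (0.45) were called higher in it. PRX72 did not pass there (change 0.41, limma adjusted p = 0.0941). AT3G49960 and AT3G21770 changed sign, at -0.34 and -0.20, and neither passed (0.197 and 0.411). AT4G36430 (1.06) and AT4G11290 (0.75) were called higher against Wassilewskija (0.00579 and 0.00604), while their changes against Ler-0, 0.41 and 0.29, did not pass.

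**Figure D2:**
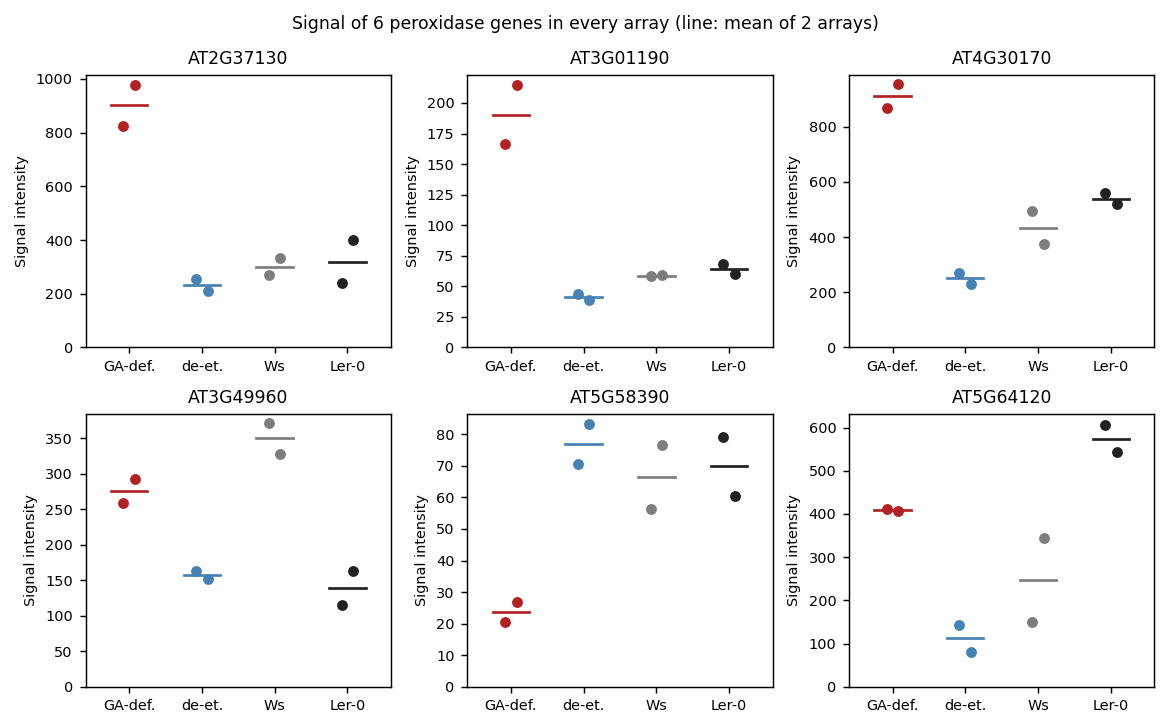
Signal of 6 peroxidases in each of the 8 arrays, on the authors' MAS5 scale, with a line at the mean of the 2 arrays of a genotype (gibberellin-deficient, de-etiolated, Wassilewskija and Ler-0, left to right). AT2G37130 and AT3G01190 stand apart in the gibberellin-deficient mutant, AT5G58390 is lowest there, and AT4G30170 and AT5G64120 have their lowest means in the de-etiolated mutant.

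In the de-etiolated mutant the called peroxidases were lower relative to the mean of the wild types, given below as against both wild types. Relative to the mean of Wassilewskija and Ler-0, 7 of 33 changed, against 11.0% of all probe sets. All 7 fell (21.2%), against 5.55%, and 0 rose in the limma test, against 5.45%. At an unadjusted p under 0.05, 4 were higher and 10 lower, but the share of all probe sets was not counted at that threshold. AT2G18980 passed as higher when Wassilewskija replicate 1 was left out (change 0.62, limma adjusted p = 0.0271). The falls numbered 4 without de-etiolated replicate 1 (2.38% of all probe sets) and 3 without de-etiolated replicate 2 (3.28%). Without Ler-0 replicate 1, AT2G37130 (-0.58) and AT3G49960 (-0.59) passed as lower too (limma adjusted p = 0.0315 and 0.0196). The median change was -0.17 over the peroxidases and 0.017 over all probe sets.

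PRX71 (AT5G64120), a wall peroxidase known from lignin formation and defence, fell most. It had 142 and 81.3 in the de-etiolated mutant, against 151 and 344 in Wassilewskija and 606 and 544 in Ler-0. The mutant arrays were below all wild-type arrays, although the lower Wassilewskija array lay just above the higher mutant array. The change against the mean of the wild types was -1.72 ± 0.27 (SE; limma adjusted p = 0.00252). Against Ler-0 it was -2.38 ± 0.32 (4.80e-04), and against Wassilewskija -1.06, which did not pass (0.109). Without Wassilewskija replicate 1 it was -1.65 and passed (0.0131). In the gibberellin-deficient mutant PRX71 had 410.4 and 406, with a change of -0.49 against Ler-0 that did not pass (0.363) but did with only the compared groups in the fit (0.0299).

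AT2G35380 had 16.5 and 14.7 in the de-etiolated mutant, against 52.1 and 43.7 in Wassilewskija and 29.1 and 44.2 in Ler-0. All 4 wild-type arrays and both gibberellin-deficient arrays, at 47.3 and 44.7, were above the de-etiolated arrays. The de-etiolated mean was under the filter cut, so the gene was tested only because its other groups were higher. The change was -1.26 ± 0.21 against both wild types (limma adjusted p = 0.00363), -1.45 ± 0.25 against Wassilewskija (0.0111) and -1.07 ± 0.25 against Ler-0 (0.0128). Under other settings with all arrays kept, the first of these ran from -1.38 to -0.89. The call against Wassilewskija was lost without either Wassilewskija array (0.0602 and 0.0681). That against Ler-0 was lost without Ler-0 replicate 2 (0.136) or mutant replicate 2 (0.0537).

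AT4G30170 had 271 and 231 in the de-etiolated mutant, against 493 and 374 in Wassilewskija and 559.9 and 519 in Ler-0. The gibberellin-deficient mutant had 869.6 and 953, so this gene was lowest in one mutant and highest in the other. The change in the de-etiolated mutant was -0.94 ± 0.13 against both wild types (limma adjusted p = 0.00131), -1.10 ± 0.15 against Ler-0 (6.46e-04) and -0.77 ± 0.15 against Wassilewskija (0.0234). The last call was lost without Wassilewskija replicate 1 or either de-etiolated array. It was also lost without the filter (0.062), without the trend (0.0946) or with only the compared groups in the fit (0.0878).

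AT1G68850 had 16.7 and 16.7 in the de-etiolated mutant, against 29.3 and 29.0 in Wassilewskija and 42.2 and 40.1 in Ler-0. Its change was -0.93 ± 0.22 against both wild types (limma adjusted p = 0.0211), lost without either de-etiolated array, Wassilewskija replicate 2 or Ler-0 replicate 2 (0.0506 to 0.101). Against Ler-0 it was -1.16 ± 0.26 (0.0105), lost without either Ler-0 array (0.0573 and 0.0586). The groups did not overlap, and Wassilewskija lay between the mutant and Ler-0. The de-etiolated mean of this gene was under the filter cut too.

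AT4G11290 had 216 and 177 in the de-etiolated mutant, against 290.3 and 248 in Wassilewskija and 382 and 361 in Ler-0. Its change was -0.68 ± 0.13 against both wild types (limma adjusted p = 0.00801), lost without de-etiolated replicate 2 (0.0701), and -0.92 ± 0.16 against Ler-0 (0.0022). AT5G39580 had 47.0 and 36.9 in the de-etiolated mutant, against 57.3 and 84.2 in Wassilewskija and 65.8 and 78.2 in Ler-0. Its change was -0.72 ± 0.19 against both wild types (0.0351), lost without any 1 of 6 arrays, all but Wassilewskija replicate 1 and Ler-0 replicate 1 (0.0513 to 0.202). In both genes the mutant arrays lay below all 4 wild-type arrays.

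Prx37 (AT4G08770), known as a wall peroxidase whose excess restricts growth, was the last of the 7. It gave 219.9 and 167 in the de-etiolated mutant, against 227 and 275 in Wassilewskija and 392 and 281 in Ler-0. The change was -0.58 ± 0.16 against both wild types (limma adjusted p = 0.0415). The call was lost without any 1 of 6 arrays, all but Wassilewskija replicate 1 and Ler-0 replicate 2. With 1 array left out the change ran from -0.77 to -0.38. The mutant arrays lay below all 4 wild-type arrays, but only narrowly, at 219.9 against 227. Without the filter, the calls of AT1G68850, AT5G39580 and Prx37 against both wild types were lost (0.0622 to 0.0813). The Prx37 call was also lost without the trend (0.0901) or with only the compared groups in the fit (0.0672). Against Wassilewskija alone, AT1G68850 changed by -0.70 (limma adjusted p = 0.186) and AT4G11290 by -0.45 (0.159). AT5G39580 changed by -0.70 (0.134) and Prx37 by -0.37 (0.339) in that comparison. None of these passed.

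Taken singly, the wild types gave different counts. Relative to Wassilewskija, 3 peroxidases changed, against 2.24% of all probe sets. All 3 fell (9.09%), against 0.894%, and 0 rose, against 1.35%. At an unadjusted p under 0.05, 2 were higher and 9 lower there, again without a count over all probe sets. Without Wassilewskija replicate 1, AT2G18980 passed as higher (0.92, limma adjusted p = 0.0494). AT3G49960 was the only one of the 3 whose call remained without any 1 array. It had 163 and 152 in the de-etiolated mutant, against 372 and 328 in Wassilewskija, a change of -1.14 ± 0.17 (limma adjusted p = 0.00574). Ler-0 had 116 and 163 and overlapped the mutant, and the change against Ler-0 was 0.19 (0.506).

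Relative to Ler-0, 12 peroxidases changed in the de-etiolated mutant, against 15.9% of all probe sets. Of these 9 fell (27.3% of those tested), against 8.03%, and 3 rose (9.09%), against 7.83%. The count of changes was 6 without Ler-0 replicate 1 (11.1% of all probe sets), 6 without Ler-0 replicate 2 (6.87%) and 6 without de-etiolated replicate 2 (11.7%). The falls not yet given against Ler-0 were AT5G19890, Prx37, AT5G39580 and AT3G01190. AT5G19890 had 81.7 and 75.6 in the de-etiolated mutant, against 215 and 135 in Ler-0, a change of -1.09 ± 0.23 (limma adjusted p = 0.00733) that was lost without Ler-0 replicate 1 (0.0627). Its change against both wild types, -0.65, did not pass (0.0528), but it passed without Wassilewskija replicate 2 (0.0421) or Ler-0 replicate 2 (0.0194). Prx37 changed by -0.78 ± 0.19 (0.0155), lost without Ler-0 replicate 1 (0.117) or de-etiolated replicate 2 (0.106). AT5G39580 changed by -0.74 ± 0.23 (0.0431), lost without any 1 of 6 arrays, all but the Wassilewskija ones. That call was also lost without the filter (0.089) or with quantile normalization (0.0523). AT3G01190 changed by -0.59 ± 0.18 (0.0471), lost without any 1 of the 8 arrays (0.055 to 0.190), and also without the filter, without the trend, with only the compared groups, with a larger pseudocount, with quantile normalization and with the replicate block (0.0511 to 0.0917). Against Ler-0, AT2G37130 passed as lower without Ler-0 replicate 1 (-0.78, 0.0252), and AT4G36430 without either gibberellin-deficient array (-0.61, 0.0401 and 0.0375).

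The 3 rises against Ler-0 were AT2G22420, PRX72 and AT3G21770. AT2G22420 had 49.6 and 47.9 in the de-etiolated mutant, against 23.9 and 28.2 in Ler-0, a change of 0.84 ± 0.22 (limma adjusted p = 0.0219). That call was lost without either de-etiolated or either Ler-0 array, and also without the filter (0.0536). PRX72 changed by 0.71 ± 0.16 (0.0102) and kept its call without any 1 array. AT3G21770 changed by 0.57 ± 0.15 (0.0268), lost without either Ler-0 array or de-etiolated replicate 2. That call was also lost with only the compared groups in the fit (0.0591). None of these 3 passed against Wassilewskija, where the changes were 0.26, -0.06 and -0.24. The comparisons of the de-etiolated mutant share its 2 arrays, and those with Ler-0 share the Ler-0 arrays.

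**Figure D3:**
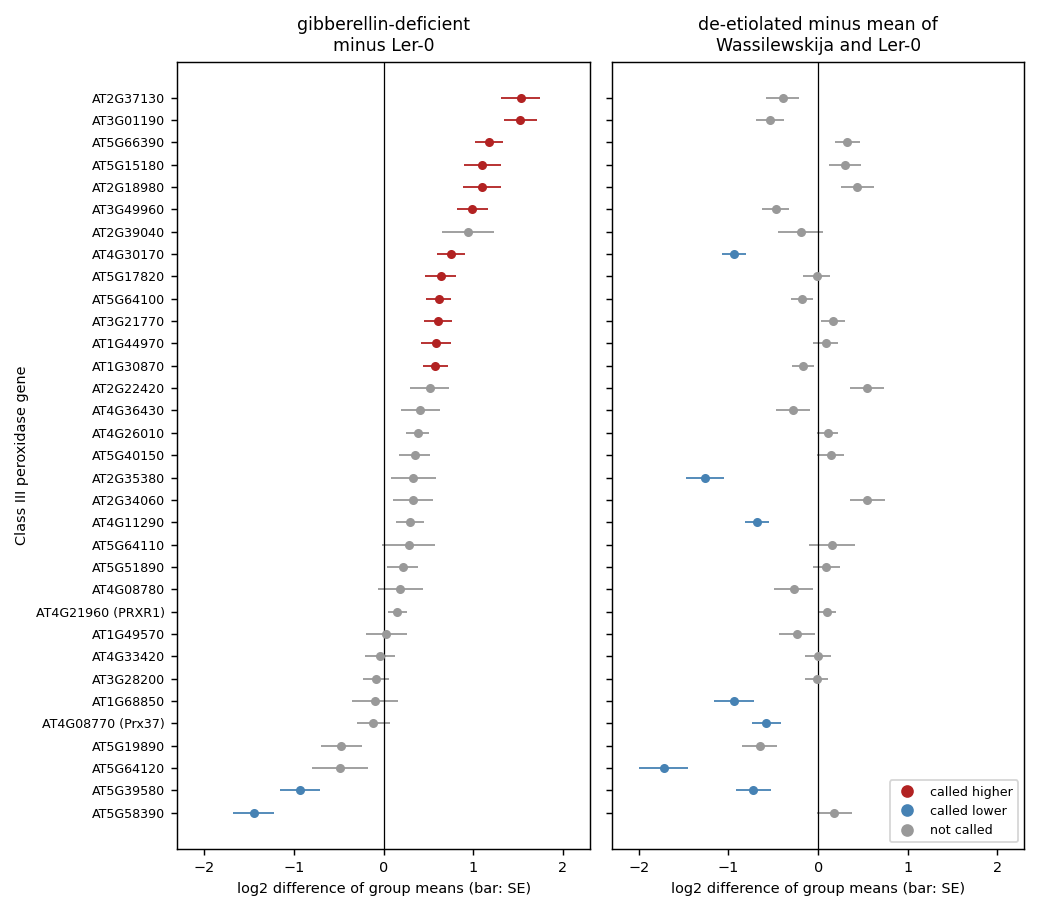
Change of each of the 33 tested peroxidases on the log2(signal + 2.96) scale, with its SE, in the gibberellin-deficient mutant minus Ler-0 and in the de-etiolated mutant minus the mean of Wassilewskija and Ler-0. The first comparison has 12 called rises and 2 called falls, the second 0 called rises and 7 called falls.

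The wild types themselves differed in the signal of 5 of 33 peroxidases, against 5.82% of all probe sets. Of these, 3 were higher in Wassilewskija than in Ler-0, against 2.71%, and 2 were lower, against 3.11%. The count of 5 was 1 without Ler-0 replicate 1 (3.39% of all probe sets), 3 without Ler-0 replicate 2 (2.85%), 2 without Wassilewskija replicate 1 (2.49%) and 2 without Wassilewskija replicate 2 (3.55%). It was 3 without either gibberellin-deficient array (4.57% and 4.56%). AT3G49960 had 372 and 328 in Wassilewskija, against 116 and 163 in Ler-0, a change of 1.33 ± 0.17 (SE; limma adjusted p = 7.38e-04) that remained without any 1 array. AT3G21770 had 161 and 186 in Wassilewskija, against 96.2 and 98.9 in Ler-0, a change of 0.81 ± 0.15 (0.00915), lost without Wassilewskija replicate 2 (0.0786) or Ler-0 replicate 1 (0.0515). PRX72 had 107 and 116 in Wassilewskija, against 62.5 and 65.9 in Ler-0, a change of 0.77 ± 0.16 (0.0141), lost without any 1 of these 4 arrays (0.0562 to 0.0894).

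The 2 genes lower in Wassilewskija were PRX71 and AT5G19890. PRX71 had 151 and 344 in Wassilewskija, against 606 and 544 in Ler-0, a change of -1.32 ± 0.32 (limma adjusted p = 0.0305). Its Wassilewskija arrays differed more than 2-fold. The call was lost without Wassilewskija replicate 1 or any 1 array of Ler-0 or the gibberellin-deficient mutant. It was also lost without the filter (0.0867), without the trend (0.0826) or with only the compared groups in the fit (0.0513). AT5G19890 had 109 and 77.2 in Wassilewskija, against 215 and 135 in Ler-0, a change of -0.87 ± 0.23 (0.0438). That call was lost without any 1 array but Ler-0 replicate 2, and also without the filter (0.0936) or the trend (0.0856). With only the compared groups in the fit (0.094) or quantile normalization (0.0638) it was lost as well.

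Seen over all 4 genotypes, the gibberellin-deficient mutant had the highest mean for 17 of the 33 genes, the de-etiolated mutant for 4, and Wassilewskija and Ler-0 for 6 each. The lowest mean was in the gibberellin-deficient mutant for 3, in the de-etiolated mutant for 12, in Wassilewskija for 3 and in Ler-0 for 15. Such means were not ranked over all probe sets, so these counts have no background share. Both gibberellin-deficient arrays lay above all 6 others for 11 genes, against 13.3% of all probe sets, and below them for 2, against 12.1%. Both de-etiolated arrays lay above all others for 2 genes, against 9.53%, and below them for 8, against 8.34%. Both Wassilewskija arrays lay above all others for 2, against 4.37%, and below them for 0, against 6.0%. Both Ler-0 arrays lay above all others for 2, against 8.08%, and below them for 5, against 6.98%.

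No array is shared between the gibberellin-deficient comparison with Ler-0 and the de-etiolated comparison with Wassilewskija. For 17 of the 33 peroxidases (51.5%) the change was positive in the first and negative in the second, a combination seen for 20.0% of all tested probe sets. It was positive in both for 8, negative in both for 6 and negative then positive for 2. The genes called in both were AT4G30170 (changes 0.75 and -0.77) and AT3G49960 (0.98 and -1.14). Over the 33 peroxidases the changes had a Pearson correlation of 0.029, and over all probe sets 0.249, which is a description over genes that share arrays.

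**Figure D4:**
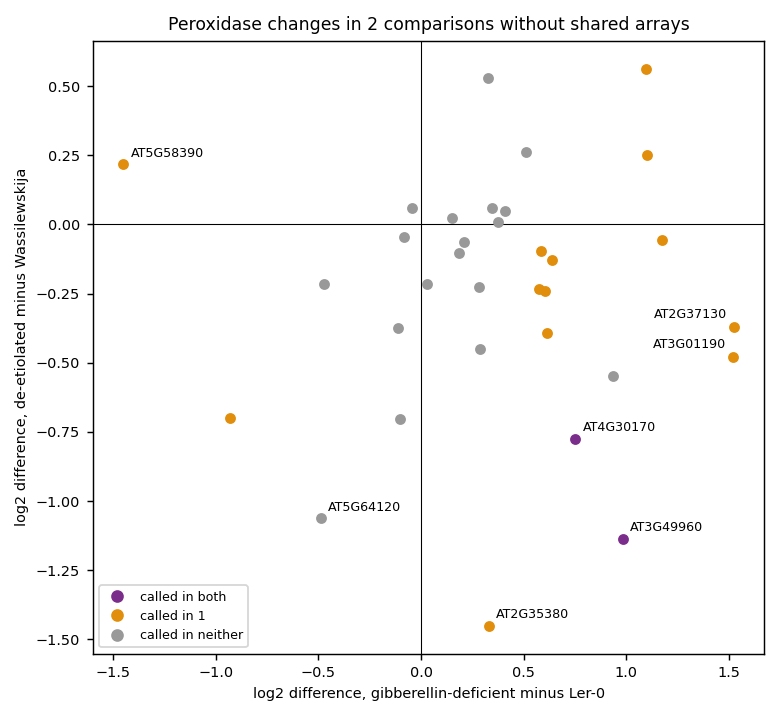
Change of the 33 tested peroxidases in the gibberellin-deficient mutant minus Ler-0 (horizontal) and in the de-etiolated mutant minus Wassilewskija (vertical), on the log2(signal + 2.96) scale. The lower right holds 17 genes, with AT4G30170 and AT3G49960 called in both comparisons.

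In the 5 comparisons other than the added one with Wassilewskija as control of the gibberellin-deficient mutant, 12 of the 33 peroxidases showed no called change. The share of all probe sets without a call in these 5 was not counted. PRXR1 (AT4G21960) had 2038 and 1965 in gibberellin-deficient seedlings, 2009 and 2082 in de-etiolated ones, 2154 and 1885 in Wassilewskija, and 1824 and 1774 in Ler-0. AT4G26010 lay between 1452 and 1960 in the 8 arrays. Array maxima were 2134 to 2814, so both probe sets were near the top of the range. AT3G28200 (133 to 163) and AT4G33420 (104 to 129) also moved little, with largest changes in these 5 comparisons of 0.09 and 0.12 in size. AT3G28200 changed by -0.14 in the added one. AT2G39040 changed by 0.94 in the gibberellin-deficient mutant against Ler-0 and did not pass (limma adjusted p = 0.061). It passed without either de-etiolated array, which had 64.0 and 31.7 (0.022 and 0.0202), or with only the compared groups in the fit (0.0255). AT4G26010 (0.38, 0.0858) passed there as well with only the compared groups (0.0309). The other 7 without a call in these 5 comparisons were AT1G49570, AT2G34060, AT4G08780, AT4G36430, AT5G40150, AT5G51890 and AT5G64110, with signals between 18.7 and 164 in the 8 arrays.

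The members include 4 groups of neighbouring genes. In the run AT5G64100, AT5G64110 and PRX71, the changes in the gibberellin-deficient mutant against Ler-0 were 0.61, 0.28 and -0.49, and only the first passed. In the de-etiolated mutant relative to both wild types they were -0.18, 0.15 and -1.72, and only PRX71 passed. Prx37 and its neighbour AT4G08780 changed by -0.58 and -0.27 there, and the second did not pass (limma adjusted p = 0.468). In the pairs AT5G58390 with AT5G58400 and AT5G19890 with AT5G19880, the second gene was too dim to test.

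The 14 dim peroxidases had no signal above 52.3. They include PRX52 (AT5G05340) and PRX25, known from lignin formation, and PER36 (AT3G50990), known from the release of seed coat mucilage. PRX52 lay between 12.1 and 29.7, and PER36 between 2.12 and 14.1. PRX25 had 18.9 and 13.0 in gibberellin-deficient seedlings, 30.2 and 43.0 in de-etiolated ones, 52.3 and 33.6 in Wassilewskija, and 6.65 and 14.6 in Ler-0. With no filter it was called higher in the de-etiolated mutant than in Ler-0 (change 1.59, limma adjusted p = 0.0376) and in Wassilewskija than in Ler-0 (1.79, 0.0462). The other 11 were AT2G24800, AT2G43480, AT3G03670, AT4G16270, AT4G17690, AT5G06730, AT5G14130, AT5G19880, AT5G24070, AT5G47000 and AT5G58400.

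Of 14 further class III peroxidases outside the list, 8 had a probe set of their own and 4 passed the filter. One of them was called: AT1G71695 was higher in the de-etiolated mutant, by 0.43 than the mean of the wild types (limma adjusted p = 0.0423) and by 0.46 than Ler-0 (0.047). Against Wassilewskija alone it changed by 0.41 and did not pass (0.1625). Each call was lost without any 1 array but Ler-0 replicate 1.

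Few genes of related pathways had a probe set of their own. Of 18 lignin precursor genes 2 had one and 1 was tested. This was HCT, an acyltransferase of the lignin precursor pathway, which was higher in the de-etiolated mutant by 0.53 ± 0.13 than the mean of the wild types (limma adjusted p = 0.0195) and by 0.65 ± 0.15 than Ler-0 (0.011). Against Wassilewskija alone it changed by 0.42 and did not pass (0.163). Both calls were lost without de-etiolated replicate 1 (0.154 and 0.0708), and the second also without Ler-0 replicate 2 (0.0631). Of 10 NADPH oxidases, which supply superoxide to the wall, 3 had a probe set and 2 were tested, with 0 called in any comparison. At an unadjusted p under 0.05, RBOHG was lower in the de-etiolated mutant than the mean of the wild types (-1.21) and than Ler-0 (-1.36). Its de-etiolated arrays stood at 8.13 and 44.5, against 34.6 and 58.6 for Wassilewskija and 51.2 and 60.6 for Ler-0, and without de-etiolated replicate 1 the changes were -0.16 and -0.31. Without de-etiolated replicate 2 they were -2.26 and -2.40 and passed (0.00171 and 0.00121). Of 17 laccases, which also oxidise lignin precursors, 1 had a probe set and it was too dim. None of 9 hydrogen peroxide turnover genes and 7 xylem genes had one.

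Markers of root, root hair and green shoot tissue were few as well. Of 17 root markers 3 were tested, of 13 root hair markers 3, of 15 green shoot markers 1 and of 8 Casparian strip markers 1. None of these was called in the gibberellin-deficient mutant against Ler-0, and 0 had an unadjusted p under 0.05. There the root markers PYK10, NAI2 and LBD16 changed by -0.05, -0.09 and -0.11, and the root hair markers EXPA7, EXPA18 and XTH26 by -0.21, 0.36 and -0.27. Beside the 12 peroxidase rises, the summed root markers had 1945 to 2039 for the gibberellin-deficient arrays, against 2002 to 2168 for Ler-0. Most of these sums was PYK10, at 1602 and 1619 for the gibberellin-deficient arrays and 1821 and 1531 for Ler-0. The summed root hair markers had 571 to 731, against 601 to 687 for Ler-0. The green shoot marker RCA had 1158 to 1255, against 913 to 961 for Ler-0, and it changed by 0.36. The Casparian strip marker SGN3 changed by 0.39. The lowest signal in any array was 1531 for the root marker PYK10 and 473 for RCA.

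In the de-etiolated mutant NAI2 fell by 0.91 against both wild types (limma adjusted p = 0.00444) and XTH26 by 1.12 (0.00467), alongside the 7 peroxidases. Against Wassilewskija alone NAI2 changed by -0.77 (0.0539) and XTH26 by -0.69 (0.151), and neither passed. PYK10, LBD16, EXPA7 and EXPA18 changed by 0.16, -0.16, 0.11 and -0.21 against both wild types and did not pass. RCA changed by -0.48 and did not pass either (0.213). Its de-etiolated arrays stood at 473 and 1061, against 1167 and 946 for Wassilewskija and 961 and 913 for Ler-0, and without de-etiolated replicate 1 the change was 0.10. Without de-etiolated replicate 2 it was -1.06 and passed (0.00203). Summed root marker signals were 2005 to 2655 in the de-etiolated mutant, 2396 to 2510.1 in Wassilewskija and 2002 to 2168 in Ler-0. PYK10 made up most of these sums too, at 1786 and 2463 in the de-etiolated mutant, so they say little of NAI2. Summed root hair marker signals were 381 to 434 in the de-etiolated mutant, 403 to 596 in Wassilewskija and 601 to 687 in Ler-0. XTH26 was also lower in Wassilewskija than in Ler-0 (-0.87, adjusted p = 0.0481), a call lost without any 1 array but Wassilewskija replicate 1. The part of root or root hair tissue in the peroxidase changes was not tested.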

How the data were processed

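The authors deposited 1 signal intensity per probe set and array, and MAS5 produced it, per the submitters' processing notes. Its settings are not given in the sources used here. The equal trimmed mean (2% at each end) shows scaling to a common level. Groups came from the labels, which do not say that the 2 arrays of a group are separate cultures. The p-values thus reflect only the spread between these arrays, which may be technical. Gene names came from the array annotation and gene order from TAIR10.1.

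Of 22810 probe sets, the 64 controls and the dimmest 40% were left out. One limma model (lmFit, contrasts.fit, eBayes with trend) took all 4 groups and fitted log2(signal + 2.96), where 2.96 is 10% of the median signal of named probe sets. Residual degrees of freedom were 4, prior ones about 8.00, and the median SE 0.20 for a difference of 2 groups and 0.17 where the wild types were averaged. With 2 arrays a group, their number limits the precision. Steps were tested on simulated data.

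Named genes were all called members, the brightest, neighbours and those with known roles; arrays are given singly for the 6 largest called changes in each comparison. Members and lists were chosen with earlier results of these data known. Alternatives covered normalization, pseudocount, filter, trend, samples, probe sets, threshold, a replicate block, the control group and each array left out. The software was R 4.3.3, limma 3.58.1, Python 3.11.15, pandas 2.3.3, numpy 2.4.6 and matplotlib 3.10.9.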

Additional observations from a re-analysis of the deposited data

How the results depend on the processing

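The counts of called peroxidases were 14 for the gibberellin-deficient mutant against Ler-0, and 7, 3 and 12 for the de-etiolated mutant relative to the mean of the wild types, to Wassilewskija and to Ler-0, with 5 for Wassilewskija against Ler-0. In that order, a threshold of 0.01 gave 7, 4, 1, 4 and 2, and the share of all probe sets was not counted at 0.01. Leaving out 1 array at a time gave 5 to 15, 3 to 8, 2 to 3, 6 to 11 and 1 to 4, and 13 of the 41 calls remained without any 1 array. With no filter, the second count was 4. Without the trend, or with only the compared groups in the fit, the last count was 3. The number of all probe sets called moved with the setting too, so these counts alone do not show a change particular to the peroxidases. With no filter, 499 of 22746 probe sets were lower in the second comparison, against 757 of 13648 in the main fit. Under the other settings of normalization, pseudocount, filter, probe sets and samples each peroxidase count stayed within 1.5 times its value. With the lowest 60% left out, only 25 peroxidases were tested, and the first comparison had 11 rises and 0 falls. AT1G68850, AT2G22420, AT2G35380, AT5G15180, AT5G39580 and AT5G58390 were not tested there, so that setting says nothing of their calls. Of the 41 calls, 12 were lost without the filter, 9 without the trend, 7 with only the compared groups, 3 with quantile normalization and 1 each with the larger pseudocount (50% of the median) and with the replicate block. Calls were also gained, 12 on leaving out 1 array and 8 otherwise. The 8 were AT2G39040, AT4G26010 and PRX71 in the first comparison with only the compared groups, and in the second AT3G01190 with the lowest 60% left out, the smaller pseudocount or no cross-hybridising probe sets, and AT5G19890 with the lowest 60% left out or the replicate block (adjusted p = 0.0316). No called change reversed under these settings or without any 1 array. With Wassilewskija as the control of the gibberellin-deficient mutant, chosen after seeing the data, AT3G21770 (-0.20) and AT3G49960 (-0.34) reversed. The cause was not tested.

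With the replicate letters of the titles as a replicate block the counts were 14, 8, 3, 11 and 5. Over all probe sets the block gave 678 rises and 901 falls in the first comparison, against 621 and 843 in the main fit. In the second it gave 834 rises and 866 falls, against 744 and 757. Rises and falls over all probe sets were also more numerous in the other comparisons. Same-lettered arrays deviated together only weakly (correlations -0.033 to 0.137), so the letters were not taken as pairs. Dim probe sets limit what can be seen for the 14 peroxidases left out. Genes of this family are similar in sequence, and the probe sets were taken as naming 1 gene because the annotation does so.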
